A study of Mus musculus with 22 samples.

Results

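Gdf15, Adm2 and the receptor system that Adm2 acts on were followed in 22 spinal cord RNA sequencing libraries from mice aged 7 months. The members were 7 genes of the 38924 gene IDs in the files: the secreted stress peptide genes Gdf15 and Adm2, the Adm2 relative Adm, and the receptor parts Calcrl, Ramp1, Ramp2 and Ramp3. Gdf15 and Adm2 were chosen by their expected counts and CPM in these same libraries, where homozygous cords were high, so their levels in contrasts with homozygous cords are a description, with no test. The other members were taken by name, as the close relative of Adm2 and the subunits of its receptor. The cords were homozygous for the E196K change in Yars (E196K/E196K, HOM, 10 libraries), heterozygous for it (E196K/+, HET, 6 libraries) or wild type (WT, 6 libraries). Yars encodes the enzyme that loads tyrosine onto its tRNA, and the same change causes an inherited neuropathy in people. The mice of each genotype were on a mixed background labelled B6N;B6J, and none of the labels gives a treatment. RNA came from whole spinal cord and was selected for polyA tails.

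GDF15 is a distant member of the TGF-beta family that stressed cells secrete, and in mice it acts on a receptor, GFRAL, that is found in the hindbrain and signals together with RET. Adrenomedullin (Adm) and adrenomedullin 2, also called intermedin (Adm2), are small peptides of the calcitonin family that widen blood vessels. Both bind the calcitonin receptor-like receptor (Calcrl), which reaches the cell surface only in a pair with a receptor activity-modifying protein, and the partner sets the preference: with Ramp1 the pair is the receptor for calcitonin gene-related peptide, and with Ramp2 or Ramp3 it is an adrenomedullin receptor. Adm2 can act through any of these pairs. In the spinal cord, calcitonin gene-related peptide is carried by sensory fibres and motor neurons, and the adrenomedullin receptors sit largely on blood vessels.

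The libraries held 24.45 M to 42.81 M expected counts each, and 16974 genes passed the filter on low counts, the 7 members among them. Gdf15 and Adm2 passed it only through the HOM libraries: in a fit of HET and WT libraries alone, 5 of the 7 members passed. Markers of neurons, astrocytes and oligodendrocytes were read in all 3 genotypes, and none of the defining markers on those lists was at 0 in any group. HOM 3 stood apart. Its 8 Schwann cell markers summed to 3969 CPM (counts scaled to a fixed library total), against at most 795 in any other library, its 8 fibroblast and meningeal markers to 536 against at most 81.7, its 9 blood cell markers to 2287 against at most 1041, and its 12 endothelial markers to 486 against at most 321. HOM 3 was also the lowest of the 22 libraries for summed markers of neurons (3426 CPM), motor neurons (126), astrocytes (4121), oligodendrocytes (6870) and microglia (231). Differences that rest on HOM 3 are given with and without it. Library titles carry 1 of 3 prefixes (39992, 40411 and 40412) whose meaning is not stated. The prefixes held 5, 3 and 2 HOM libraries, 0, 1 and 5 HET libraries, and 1, 2 and 3 WT libraries. No label states that the libraries are from separate mice, and p-values here reflect the spread between libraries only.

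Gdf15 (chr8:70629393-70632456, minus strand, GRCm38) was a rare transcript in HOM cords and close to unread in HET and WT cords. The 10 HOM libraries held 4 to 19 expected counts each, with a median of 11.5. The 6 HET libraries held 0 to 4 counts (median 1.5), and 2 of them held none. The 6 WT libraries held 0 to 4 counts (median 1.5), and 1 of them held none. Once scaled to depth, each HOM library lay above every HET and every WT library. Gdf15 was chosen for its level in these libraries, so this separation is part of the choice. For this and the other members' counts of libraries above or below a group, the share over all genes is not given here. HOM libraries averaged 0.360 CPM (SD 0.118, n = 10), HET libraries 0.0455 CPM (SD 0.0437, n = 6) and WT libraries 0.0519 CPM (SD 0.0377, n = 6). HOM 6 was the lowest HOM library at 0.135 CPM and HET 2 the highest of the others at 0.115 CPM, so the gap between the groups was narrow. In bulk tissue, more cells that express a gene and more RNA per cell cannot be told apart.

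The summed counts of Gdf15 were 121 in HOM and 11 in WT, a ratio of 6.69 after scaling to depth (95% exact binomial interval 3.61 to 13.8). Against the 9 counts in HET the ratio was 7.76 (3.96 to 17.4). Both contrasts use the same HOM libraries and cover counting error only, and Gdf15 was chosen for its level in HOM. The ratio of HET to WT, on 9 and 11 counts, was 0.862 (0.316 to 2.29). edgeR's quasi-likelihood fit gave a log2 fold change of -0.19 for HET against WT (SE 0.644, adjusted p = 1.00), and its fold interval of 0.349 to 2.196 leaves room for changes in either direction. Within the title prefixes HOM libraries averaged 0.388, 0.292 and 0.394 CPM for 39992, 40411 and 40412, and WT libraries 0.0305, 0.0927 and 0.0318 CPM. Each HOM library lay above every WT library, so the difference could only have the same direction in each prefix. It was smallest in 40411, where HOM 6 and HOM 7 lie.

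Adm2 (chr15:89322720-89324731, plus strand, GRCm38) separated HOM from the other genotypes with a wider gap. The HOM libraries held 7 to 18 counts each (median 12). In HET, 3 of the 6 libraries held 1 count and the other 3 held none. In WT, WT 1 held 1 count and the other 5 held none. HOM libraries averaged 0.360 CPM (SD 0.109, n = 10), HET libraries 0.0152 CPM (SD 0.0168, n = 6) and WT libraries 0.00508 CPM (SD 0.0125, n = 6). The lowest HOM library, HOM 7, had 0.226 CPM, and the highest of the other libraries, HET 5, had 0.0349 CPM. No HOM library came near the range of the other genotypes. Adm2 was chosen for its level in these same libraries, so this gap is part of the choice.

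With 118 counts in HOM and 1 in WT, the Adm2 ratio was 71.8, with a counting interval of 12.6 to 2859. A single WT read sets this ratio, and the interval is wide. Against the 3 counts in HET the ratio was 22.7 (7.58 to 112). Between HET and WT, 3 counts against 1 gave a ratio of 3.16 with an interval of 0.254 to 166, which holds no direction. The fitted log2 fold change of HET against WT was 1.15 (SE 0.93, adjusted p = 1.00 in edgeR), a value that depends on the prior count of the fit. HOM libraries averaged 0.436, 0.307 and 0.246 CPM in the prefixes 39992, 40411 and 40412. The WT libraries averaged 0.0305 CPM in 39992, where 1 library held the 1 read, and held no Adm2 read in 40411 and 40412.

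**Figure D1:**
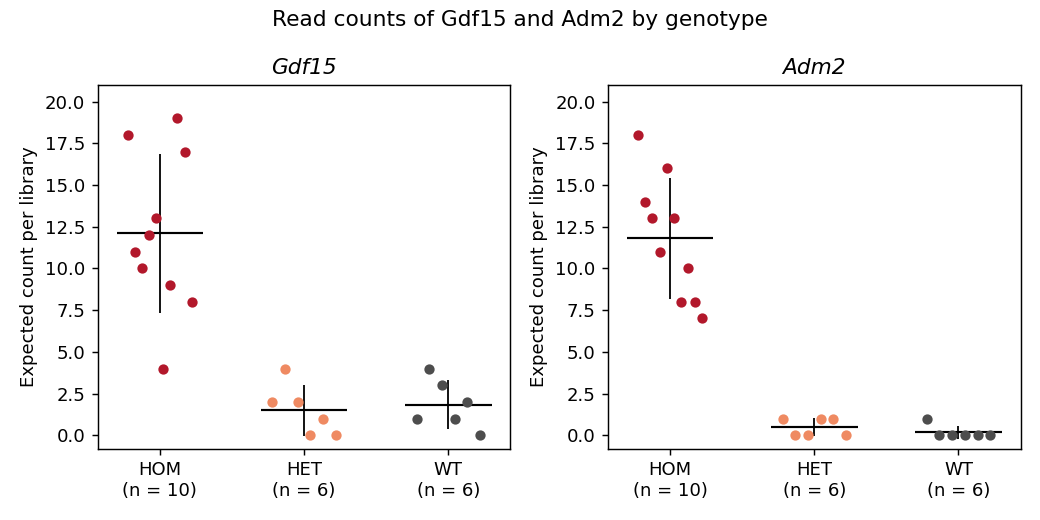
Expected counts of Gdf15 and Adm2 in each library (points) for HOM, HET and WT cords, with the group mean (horizontal line) and SD (vertical line). Counts are not scaled to depth: HOM libraries hold 4 to 19 reads of Gdf15 and 7 to 18 of Adm2, while HET and WT libraries hold at most 4 and at most 1.

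edgeR called 16 of the 16974 genes between HOM and WT at an adjusted p below 0.05 (0.0943%), 15 higher in HOM (0.0884%) and 1 lower (0.00589%), and Gdf15 and Adm2 were the 2 members among the higher ones. Between HOM and HET it called 18 genes (0.106%), 13 higher (0.0766%) and 5 lower (0.0295%), again with Gdf15 and Adm2 among the higher ones and no other member. They were chosen for being high in HOM, so their being called there is part of the choice. With the title prefix as a covariate Adm2 was the 1 member called in HOM against HET, and without any one of HOM 1 to HOM 6 Adm2 failed the filter on low counts. Between HET and WT edgeR called 0 genes (0%), DESeq2 and limma-trend on log2(TPM + 1) also called 0, and 578 genes had an unadjusted p below 0.05. No member was called there.

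Among HOM libraries the counts of both genes varied little more than counting alone would give. The ratio of their variance to that of Poisson counting was 1.25 for Gdf15 and 1.11 for Adm2, against 4.48 for Adm and 11.8 for Ramp2. This ratio rises with the count, and median HOM counts were 11.5, 12, 93.5 and 478 for these 4 genes. The values thus do not show that Gdf15 and Adm2 vary less than Adm and Ramp2. The Ramp2 value includes HOM 3. A relation between the levels of Gdf15 and Adm2 was not detected within HOM: over the 10 HOM libraries Pearson's r of log2 CPM was -0.097 (two-sided permutation p = 0.805, Benjamini-Hochberg adjusted p = 0.805 over 4 relations) and Spearman's rho was 0.127 (p = 0.735, adjusted p = 0.735). Without the 2 libraries farthest from the median of Gdf15, HOM 6 and HOM 7, r was -0.092. At 4 to 19 reads per library, counting error takes up most of the spread, so a relation within HOM was hardly detectable at this depth. HOM libraries were too few in each title prefix for a value within prefixes.

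The genes whose pattern was most like that of Gdf15 over all 22 libraries were Acsl5, which activates fatty acids (r of log2 CPM 0.910), Cars, the cysteine tRNA synthetase (0.891), and Fgf21, a secreted metabolic hormone (0.886). For Adm2 they were Stbd1, which binds glycogen (0.955), Fgf21 (0.955) and Cdsn, which encodes corneodesmosin (0.948). The r between Gdf15 and Adm2 themselves was 0.850. These values compare 14749 genes, over libraries in which HOM stands apart from HET and WT. Fgf21 averaged 3.34 CPM in HOM (SD 1.17), 0.0671 CPM in HET (SD 0.0645) and 0 CPM in WT, and Stbd1 averaged 4.22, 1.46 and 1.25 CPM. Acsl5, a gene at a higher level, averaged 37.5 CPM in HOM (SD 1.196), 34.0 CPM in HET (SD 0.952) and 33.5 CPM in WT (SD 1.29). Its HOM libraries ran from 36.0 to 39.5 CPM, above the highest HET and WT libraries at 35.5 CPM. Acsl5 was picked for its likeness to Gdf15 over these same libraries, so this separation is part of the choice. The share of all genes that separate in this way is not given here.

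The 250 bases before the transcription start of Gdf15 and Adm2 are shown because these are the members that were high together in HOM. The sequences are from RefSeq (GRCm38.p6), written 5′ to 3′ on the strand of the gene, at chr8:70632457-70632706 (minus strand) and chr15:89322470-89322719 (plus strand).
Gdf15: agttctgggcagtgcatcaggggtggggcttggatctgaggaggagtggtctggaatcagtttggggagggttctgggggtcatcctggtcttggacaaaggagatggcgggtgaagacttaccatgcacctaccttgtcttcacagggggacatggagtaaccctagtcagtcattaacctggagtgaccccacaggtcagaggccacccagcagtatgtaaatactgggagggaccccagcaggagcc
Adm2: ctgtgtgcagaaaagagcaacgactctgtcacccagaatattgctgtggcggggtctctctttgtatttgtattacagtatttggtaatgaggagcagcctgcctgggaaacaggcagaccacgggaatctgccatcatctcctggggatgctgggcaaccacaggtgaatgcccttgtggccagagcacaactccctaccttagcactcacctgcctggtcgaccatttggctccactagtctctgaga
No letters are in capitals because none of the 3 motifs searched on both strands was found in either window. The motifs were the ATF4-C/EBP composite element (TGATGNAA, in 3.45% of 32851 promoter windows of the same length), the cyclic AMP response element (TGACGTCA, in 1.55%) and the core of the hypoxia response element (ACGTG, in 16.6%). No match says only that these letters are not in this window. RefSeq gives Gdf15 a second start, whose window held 2 matches to ACGTG that overlap each other, 83 and 82 bases before that start. Of the 6 members with a promoter in the RefSeq table, Calcrl was the one with a match to the ATF4-C/EBP composite element, 75 bases before its start. In the Calcrl window 145 of the 250 bases lie in annotated exons. Ramp2 had no entry in that table.

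The genes beside Gdf15 and Adm2 were compared between HOM and WT to see whether the difference extended along the chromosome. Lrrc25, 7910 bases from Gdf15, had 0.455 CPM in HOM and 0.380 CPM in WT (log2 fold change 0.24, SE 0.268, edgeR adjusted p = 0.861). Pgpep1, 13979 bases away on the other side, had 20.5 CPM in HOM and 21.7 CPM in WT (-0.081, SE 0.0386, adjusted p = 0.815). Sbf1, 7409 bases from Adm2, had 226 CPM in HOM and 222 CPM in WT (0.030, SE 0.0516, adjusted p = 0.914). None of the 3 passed the test. Miox, 9667 bases on the other side of Adm2, did not pass the filter on low counts.

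Adm, the better known relative of Adm2, did not pass the test in any contrast. The 10 HOM libraries ran from 2.37 to 4.24 CPM (median 2.89), the 6 HET libraries from 2.81 to 3.77 CPM (median 3.33) and the 6 WT libraries from 2.41 to 3.53 CPM (median 2.85). The groups overlapped across most of their range. The log2 fold change of HOM against WT was 0.074 (SE 0.123, 95% interval -0.18 to 0.33, adjusted p = 0.910), that of HET against WT 0.21 (SE 0.136, -0.076 to 0.49, adjusted p = 1.00) and that of HOM against HET -0.13 (SE 0.121, -0.38 to 0.12, adjusted p = 0.787). HOM libraries averaged 2.86, 2.59 and 4.13 CPM in the prefixes 39992, 40411 and 40412, and WT libraries 2.41, 2.82 and 3.08 CPM, so HOM was above WT in 2 prefixes and below it in 40411. With the prefix as a covariate the difference of HOM from HET was 0.090, of opposite sign. The genes most like Adm over the 22 libraries were the neuropeptide precursor Pnoc (r = 0.780), the secretogranin Scg2 (0.739) and Ago4 of the small RNA pathway (0.717). An annotated antisense gene overlaps Adm, and since the strand setting of the counting is not given, reads of the 2 strands cannot be told apart.

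Calcrl, the receptor subunit that binds all of these peptides, had 14.1 to 18.2 CPM in HOM (median 16.5), 13.6 to 19.8 CPM in HET (median 15.7) and 13.6 to 22.1 CPM in WT (median 17.5). WT 5 was the highest library of all, and every HOM library lay inside the WT range. In HOM against WT the difference of Calcrl on the log2 scale was -0.11 (SE 0.0841, 95% interval -0.28 to 0.064, adjusted p = 0.821), for HET against WT -0.13 (SE 0.0945, -0.32 to 0.066, adjusted p = 1.00) and for HOM against HET 0.020 (SE 0.0848, -0.16 to 0.20, adjusted p = 0.964). No contrast passed, and the intervals exclude a change of 1.5-fold in either direction. The sign of each difference turned when TPM (transcript levels scaled to length) was used: 0.044 for HOM against WT on log2(TPM + 1), 0.054 for HET against WT and -0.010 for HOM against HET. The median transcript length that RSEM assigned to Calcrl was 2248 bases in HOM, 2115 bases in HET and 2509 bases in WT.

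Ramp1, which makes Calcrl a receptor for calcitonin gene-related peptide, was the steadiest member. It had 50.6 to 58.6 CPM in HOM (median 55.5), 52.9 to 58.4 CPM in HET (median 55.9) and 51.4 to 59.3 CPM in WT (median 56.9). The groups covered the same range, and the lowest library was HOM 3. In HOM against WT its log2 fold change came to -0.039 (SE 0.0342, 95% interval -0.11 to 0.031, adjusted p = 0.828), for HET against WT -0.021 (SE 0.0383, -0.10 to 0.058, adjusted p = 1.00) and for HOM against HET -0.019 (SE 0.0343, -0.089 to 0.052, adjusted p = 0.908). Without HOM 3 the log2 fold change of Ramp1 in HOM against WT was -0.026 (edgeR adjusted p = 0.885). With TPM the sign of HET against WT was positive (0.019).

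Ramp2, the partner of the main adrenomedullin receptor of blood vessels, was the receptor part with the largest difference, which did not pass the test over all genes. It had 11.3 to 20.6 CPM in HOM (median 14.7), 11.1 to 14.6 CPM in HET (median 12.7) and 11.9 to 14.3 CPM in WT (median 13.4). HOM 3, the library with high endothelial and Schwann cell markers, was the highest by far at 20.6 CPM, and the next HOM library had 15.1 CPM. Of the 10 HOM libraries, 8 lay above every WT library and 6 above every HET library, and HOM 7 was the lowest of its group. On the log2 scale Ramp2 differed by 0.18 in HOM against WT (SE 0.0857, 95% interval 0.003 to 0.36, unadjusted p = 0.0466, edgeR adjusted p = 0.815) and by 0.22 from HET (SE 0.0862, 0.041 to 0.40, unadjusted p = 0.018, adjusted p = 0.461). HET against WT gave -0.039 (SE 0.0962, -0.24 to 0.16, adjusted p = 1.00). Of the 16974 genes tested, 1004 had an unadjusted edgeR p below 0.05 in HOM against WT and 1493 in HOM against HET.

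Without HOM 3 the Ramp2 mean in HOM was 14.2 CPM (SD 1.15, n = 9) and the log2 fold changes were 0.12 against WT (adjusted p = 0.795) and 0.16 against HET (adjusted p = 0.480). Within the prefixes the log2 difference of HOM from WT was 0.27 in 39992, which holds HOM 3 and a single WT library, 0.033 in 40411 and 0.13 in 40412. In HOM against WT, endothelial markers leaned the same way as Ramp2: with 12 of 12 tested, 11 were higher in HOM and none passed. Their median log2 fold change was 0.095, against 0.0065 over all genes tested. Their summed level was 280 to 486 CPM in HOM, 278 to 310 CPM in HET and 269 to 309 CPM in WT. So did pericyte and smooth muscle markers: 9 of 9 were higher in HOM than in WT (median 0.12) and 9 of 9 higher in HOM than in HET (median 0.20), and none passed. Their summed level was 192 to 356 CPM in HOM, 224 to 242 CPM in HET and 206 to 259 CPM in WT. Without HOM 3, 9 of 12 endothelial markers (median 0.043) and 9 of 9 pericyte and smooth muscle markers (median 0.041) were higher in HOM than in WT. Between HOM and HET, 10 of 12 endothelial markers were higher in HOM (median 0.061). Without HOM 3 that fell to 6 higher and 6 lower (median 0.0013), while Ramp2 stayed at 0.16. Pericyte and smooth muscle markers then had 8 higher and 1 lower (median 0.077). The part of vessel cells in the Ramp2 difference was not tested. The genes most like Ramp2 over the 22 libraries were the phospholipase Pla1a (r = 0.862), the anchoring protein Akap13 (0.801) and Cytl1, a secreted protein (0.797), and each had its highest value in HOM 3. Pla1a had 1.197 CPM in HOM (1.06 without HOM 3), 0.823 CPM in HET and 0.990 CPM in WT. Akap13 had 49.3 CPM in HOM (47.6 without HOM 3), 45.7 CPM in HET and 46.8 CPM in WT, and Cytl1 had 0.474 CPM in HOM (0.385 without HOM 3), 0.221 CPM in HET and 0.264 CPM in WT.

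Ramp2 shares reads with a neighbour. Of the 3491 words of 75 bases, the read length, in its annotated transcripts, 1029 (29.5%) also occur in transcripts of Vps25, an endosomal sorting gene that overlaps it on the same strand. RSEM divides such reads between the genes, and Ramp2 was the member whose expected counts were not whole numbers. Vps25 itself averaged 30.1 CPM in HOM, 28.5 CPM in HET and 29.5 CPM in WT (HOM against WT 0.029, SE 0.0427, adjusted p = 0.895). Ramp3 shared 2.19% of its words, with the pseudogene Gm11978, and the other members shared none.

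Ramp3, the partner in the second adrenomedullin receptor, was the least abundant receptor part. It had 1.28 to 2.05 CPM in HOM (median 1.73), 1.62 to 2.24 CPM in HET (median 1.86) and 1.49 to 2.09 CPM in WT (median 1.79). The groups overlapped, with 3 HOM libraries below every WT library and 4 below every HET library. Ramp3 had a log2 fold change of -0.065 for HOM against WT (SE 0.114, 95% interval -0.30 to 0.17, adjusted p = 0.914), 0.11 for HET against WT (SE 0.127, -0.15 to 0.37, adjusted p = 1.00) and -0.17 for HOM against HET (SE 0.114, -0.41 to 0.061, adjusted p = 0.679). None passed.

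**Figure D2:**
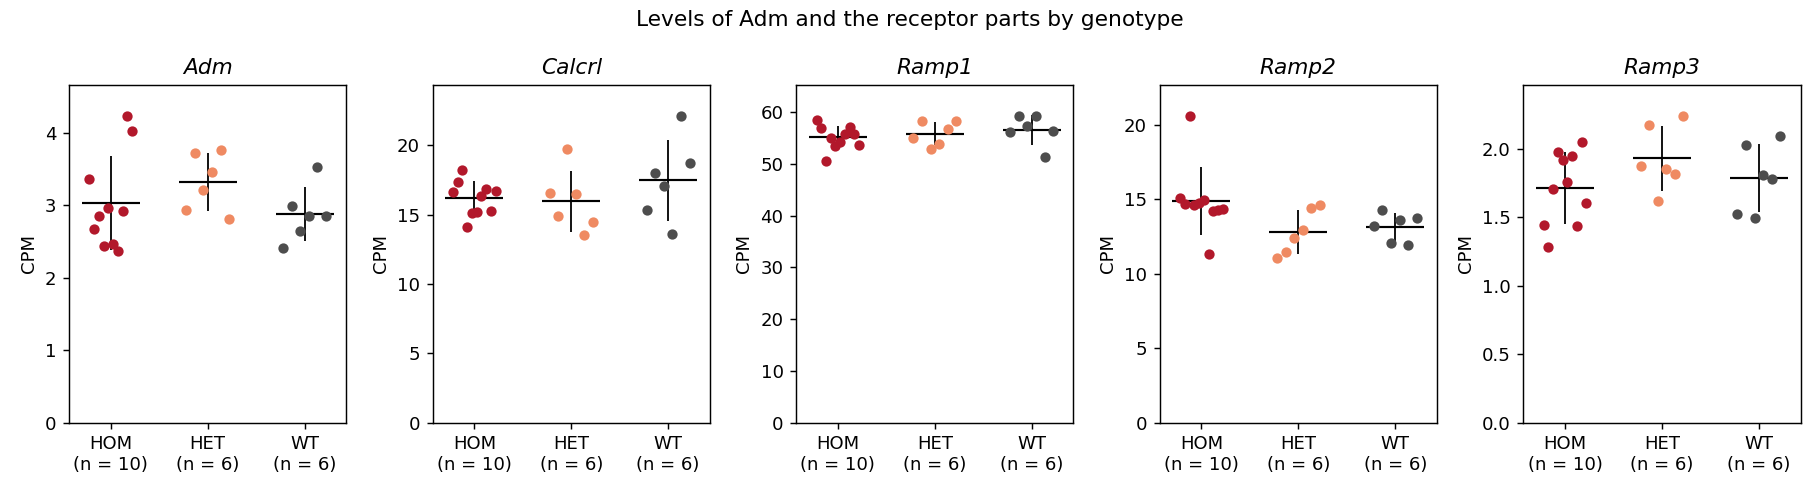
Levels in CPM of Adm, Calcrl, Ramp1, Ramp2 and Ramp3 in each library (points) for HOM, HET and WT cords, with the group mean (horizontal line) and SD (vertical line); each axis starts at 0. The groups overlap for each of the 5 genes, and the single high Ramp2 point, at 20.6 CPM, is HOM 3.

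Compared per length, in TPM, the members kept nearly the same order in each genotype. Ramp1 was first, at 43.4 TPM in HOM, 44.7 TPM in HET and 44.1 TPM in WT. Ramp2 followed at 28.8, 25.9 and 25.8 TPM for HOM, HET and WT, then Calcrl at 13.95, 14.25 and 13.65 TPM, Adm at 4.70, 5.15 and 4.33 TPM, and Ramp3 at 3.04, 3.45 and 3.09 TPM. Each neighbour in this order stood above the next in every library, except that Ramp2 exceeded Ramp1 in HOM 3. The ranges of Adm and Ramp3 overlapped over the HOM libraries and over the WT libraries, though Adm was the higher of the pair in each single library. At the low end the order changed: in HOM, Adm2 had 0.792 TPM (SD 0.227) and Gdf15 0.533 TPM (SD 0.175), with Adm2 higher in 8 of 10 libraries. In HET and WT, Gdf15 had 0.0700 and 0.0800 TPM, and Adm2 had 0.0350 and 0.0117 TPM. Even in HOM, Adm2 stayed below Adm, its relative with the same receptors, in all libraries: the highest Adm2 level was 1.13 TPM and the lowest Adm level 3.63 TPM.

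The balance between the RAMPs over the whole cord was described by each gene's share of their summed TPM. These shares pool all cells of the cord, so they do not show which partner Calcrl meets in a cell. Ramp1 made up 57.9% in HOM (SD 4.07), 60.4% in HET (SD 2.16) and 60.5% in WT (SD 1.30). Ramp2 made up 38.1% in HOM (SD 4.32), 35.0% in HET (SD 2.45) and 35.3% in WT (SD 0.969), and Ramp3 4.05%, 4.64% and 4.24%. Ramp1 was thus the largest share in each group, and the shares of HOM and WT overlapped for each gene. HOM 3 was the exception among the libraries, with 48.7% Ramp2 and 47.7% Ramp1. Without it the HOM mean was 59.0% for Ramp1 and 36.9% for Ramp2 (n = 9). The summed RAMP level was 5.42 times that of Calcrl in HOM (SD 0.451), 5.42 times in HET (SD 1.32) and 5.54 times in WT (SD 1.30), so transcripts of the partners outnumbered those of the receptor in every group.

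**Figure D3:**
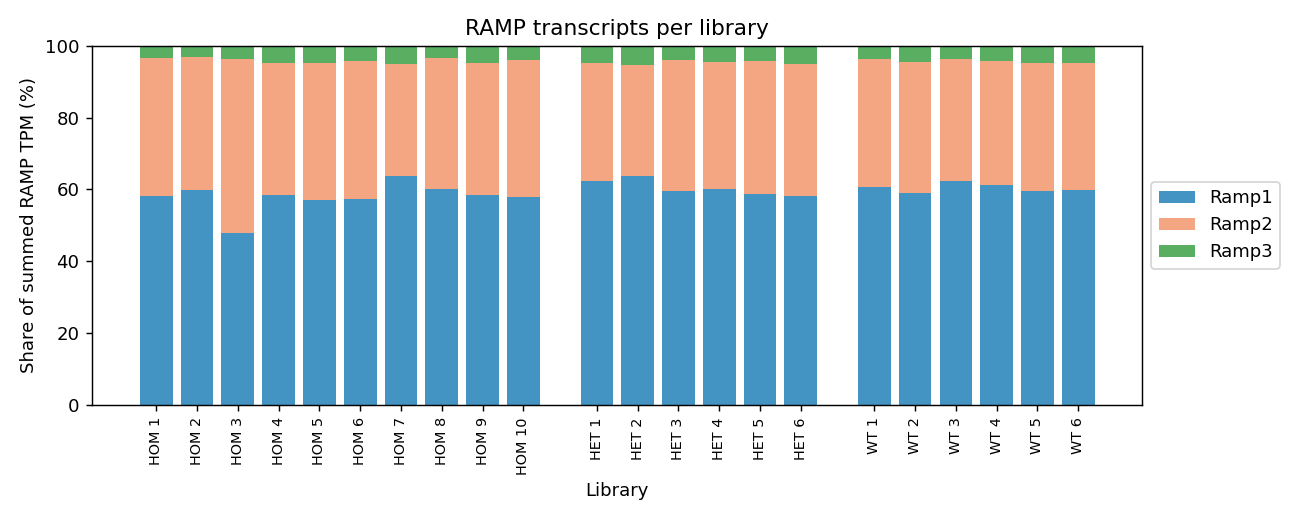
Share of Ramp1, Ramp2 and Ramp3 in their summed TPM (%) for each of the 22 libraries, grouped as HOM, HET and WT. HOM 3 is the library with the largest Ramp2 share, 48.7%, and the other 21 libraries lie between 31.1% and 38.5%.

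Over the 22 libraries no relation of Calcrl with a partner passed the adjusted threshold. Pearson's r of log2 CPM was -0.465 with Ramp1 (two-sided permutation p = 0.0303, adjusted p = 0.121 over 4 relations), with Spearman's rho of -0.283 (p = 0.202, adjusted p = 0.405). Without WT 5 and HET 5, the libraries farthest from the median of Calcrl, r was -0.308. Within the title prefixes r was -0.203 in 39992 (n = 6), 0.940 in 40411 (n = 6) and -0.835 in 40412 (n = 10), so its sign differed between prefixes. With Ramp2, r was -0.099 (p = 0.659, adjusted p = 0.805; rho -0.158, p = 0.480, adjusted p = 0.641; 0.073 without the same 2 libraries), and -0.325 without HOM 3. With Ramp3, r was -0.269 (p = 0.223, adjusted p = 0.446) and rho was -0.377 (p = 0.0867, adjusted p = 0.347), and r was -0.342 without the same 2 libraries. Within the prefixes 39992, 40411 and 40412, r was 0.671, -0.065 and -0.483 with Ramp2 and -0.607, 0.045 and -0.353 with Ramp3.

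The genes most like Calcrl were Ssr1, of protein entry into the endoplasmic reticulum (r = 0.911), the membrane protein Cd47 (0.902) and the RNA helicase Ddx5 (0.901). Those most like Ramp1 were Wbp2 (0.827), the aldehyde reductase Akr1a1 (0.773) and Mvk, the mevalonate kinase (0.764). Those most like Ramp3 were the aminoacylase Acy3 (0.705), the transcription factor Tcf15 (0.698) and the synaptic protein Doc2b (0.685). Ddx5 averaged 749 CPM in HOM, 748 CPM in HET and 762 CPM in WT, and Tcf15 0.262, 0.366 and 0.253 CPM for HOM, HET and WT. Points share libraries and depth scaling, so these correlations are descriptions.

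The other ligands of the family did not pass either. Calca, which encodes calcitonin and calcitonin gene-related peptide, had 12.4 to 21.2 CPM in HOM (median 14.4), 16.2 to 21.8 CPM in HET (median 19.1) and 12.9 to 22.9 CPM in WT (median 16.7). Of the HOM libraries, 8 of 10 lay below every HET library, and 1 lay below every WT library. The share over all genes is not given here for these counts either. Prefix 39992 held 5 HOM libraries and 0 HET libraries. In prefix 40412, HOM 9 had 21.2 CPM and HOM 10 had 13.6 CPM, and HET libraries ran from 16.2 to 21.8 CPM. Its log2 fold change was -0.34 for HOM against HET (SE 0.125, unadjusted p = 0.0119, adjusted p = 0.413) and -0.22 for HOM against WT (SE 0.125, adjusted p = 0.815). Calcb, which encodes the second form of calcitonin gene-related peptide, averaged 3.72 CPM in HOM (SD 0.693), 4.48 CPM in HET (SD 0.424) and 4.18 CPM in WT (SD 0.656), with -0.27 for HOM against HET (SE 0.115, adjusted p = 0.5002) and -0.17 for HOM against WT (SE 0.115, adjusted p = 0.819). Both genes had the lowest mean in HOM. Iapp, which encodes the islet peptide amylin, had 0 counts in all 22 libraries, which allows a level of up to 0.00416 CPM over them.

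Among the other receptor components, Calcr, the calcitonin receptor, averaged 0.517 CPM in HOM (SD 0.136), 0.499 CPM in HET (SD 0.106) and 0.460 CPM in WT (SD 0.0590). Crcp, which couples Calcrl to signalling, averaged 18.4, 17.5 and 18.1 CPM for HOM, HET and WT. The scavenger of adrenomedullin, Ackr3, averaged 7.48, 7.68 and 7.96 CPM, and Gpr182, an atypical receptor of endothelium, 1.31, 1.12 and 1.27 CPM. None passed, and Gpr182 was highest in HOM 3, at 2.34 CPM, as Ramp2 was. Without HOM 3 the Gpr182 mean in HOM was 1.197 CPM (SD 0.252, n = 9), below that of WT. Of the 13 genes of the calcitonin family list 12 were tested. Adm2 was the 1 called in HOM against WT and in HOM against HET, which is part of its choice. Over the list, the median for HOM against WT was -0.010 on the log2 scale, with 6 higher and 6 lower, against 0.0065 over all genes tested (-0.046 without HOM 3, with 5 higher and 7 lower).

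**Figure D4:**
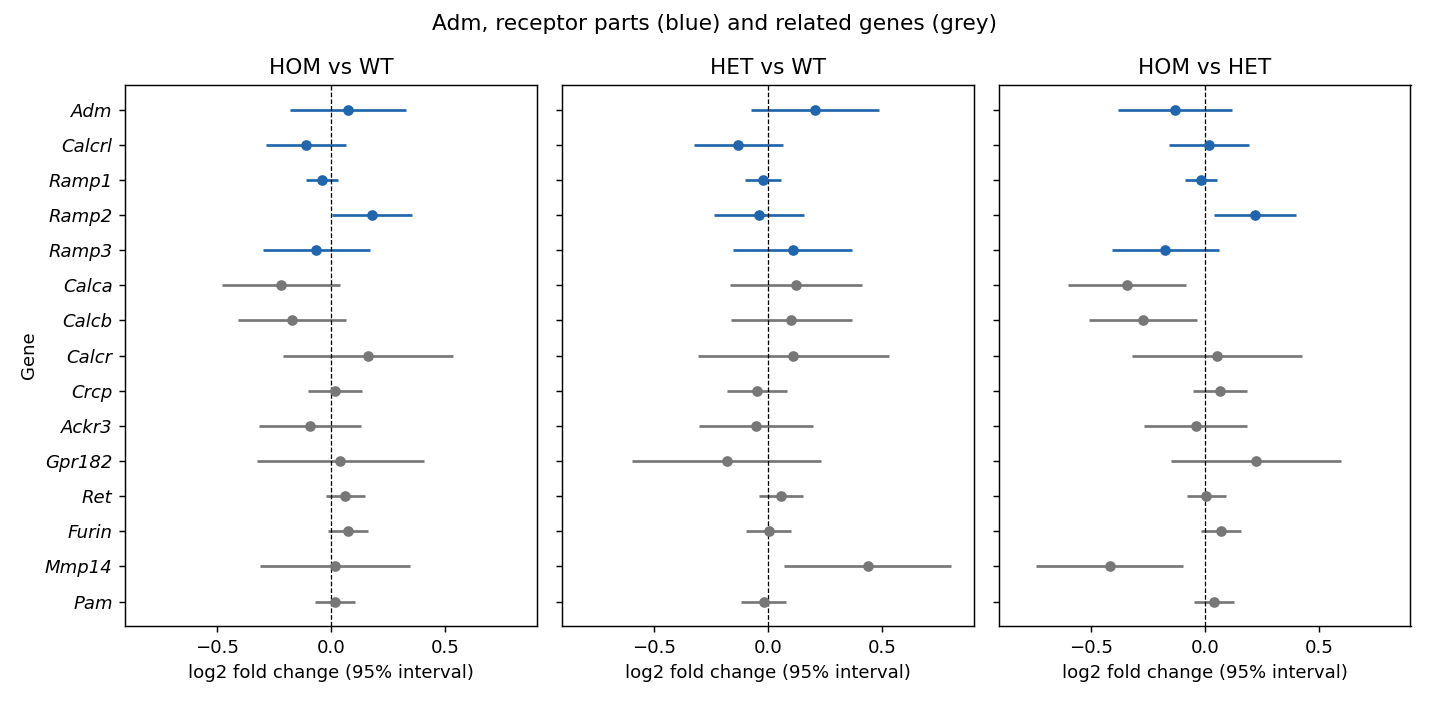
log2 fold change with its 95% interval (edgeR, n = 10 HOM, 6 HET and 6 WT libraries) for Adm and the receptor parts (blue) and related genes (grey) in the 3 contrasts. The Ramp2 intervals in HOM against WT (0.003 to 0.36) and HOM against HET (0.041 to 0.40) lie above 0 before adjustment, and no gene shown passed an adjusted p of 0.05.

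The GDF15 receptor was not detected above a trace. Gfral had 1 count in HOM, 1 in HET and 1 in WT, each in a single library, and it failed the filter on low counts. Its co-receptor Ret, which also serves other ligands and is expressed by motor neurons, averaged 142 CPM in HOM (SD 8.34), 141 CPM in HET (SD 5.79) and 136 CPM in WT (SD 9.43; HOM against WT 0.062, SE 0.0416, adjusted p = 0.819). Furin, a protease that cuts precursors of the TGF-beta family, averaged 33.3 CPM in HOM, 31.7 CPM in HET and 31.6 CPM in WT (0.074, SE 0.0428, adjusted p = 0.815). Mmp14, a membrane protease that cleaves GFRAL, averaged 13.5 CPM in HOM (SD 2.66), 17.9 CPM in HET (SD 3.07) and 13.3 CPM in WT (SD 3.76). The log2 fold change of Mmp14 was 0.44 for HET against WT (SE 0.175, unadjusted p = 0.0212, adjusted p = 1.00) and -0.42 for HOM against HET (SE 0.155, adjusted p = 0.427). The convertase gene Pcsk6 had a log2 fold change of -0.10 in HOM against WT (SE 0.0518, adjusted p = 0.815). Of the 7 genes of the axis 6 were tested. Gdf15 alone was called, which is part of its choice.

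Genes that mature and break down peptides gave no call among 11 tested, with a median log2 fold change of 0.020 in HOM against WT (-0.0074 without HOM 3). Pam, which amidates the ends of adrenomedullins and calcitonin gene-related peptide, averaged 194 CPM in HOM, 189 CPM in HET and 191 CPM in WT (0.020, SE 0.0423, adjusted p = 0.932). Without HOM 3, its highest library, the log2 fold change was -0.0074 (adjusted p = 0.973). The smallest p of the list belonged to Cpd, a carboxypeptidase, with 229 CPM in HOM (SD 12.1), 253 CPM in HET (SD 11.0) and 247 CPM in WT (SD 9.50; HOM against WT -0.11, SE 0.0351, adjusted p = 0.643). Pcsk7, another convertase, had a log2 fold change of 0.073 (SE 0.0402, adjusted p = 0.815). Downstream of Calcrl, 24 genes of Gs and cyclic AMP signalling were tested and none passed (median 0.032). The adenylyl cyclase Adcy8 had 0.068 (SE 0.0347, adjusted p = 0.815) and the receptor kinase Grk2 0.055 (SE 0.0305, adjusted p = 0.815).

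Beside Gdf15, none of the other secreted TGF-beta family genes passed in HOM against WT, with 15 of 16 tested and a median log2 fold change of 0.039. Nodal, which was next by p, had 0.534 CPM in HOM and 0.423 CPM in WT (0.32, SE 0.184, adjusted p = 0.815). Over all genes tested in HOM against WT, 0.0943% were called and the median was 0.0065. Of 12 stress transcription factors, 10 were higher in HET than in WT (median 0.049) and 9 higher in HOM than in HET (median 0.061), with none called. Without HOM 3, 9 were again higher in HOM than in HET (median 0.055), and 1 was called. In HOM against WT 11 were higher and 1 passed (median 0.14). That gene was Atf4, the main factor of the integrated stress response, at 90.6 CPM in HOM (SD 5.36), 85.5 CPM in HET (SD 3.86) and 77.3 CPM in WT (SD 2.99; HOM against WT 0.23, SE 0.0383, adjusted p = 0.00461). Ddit3, a stress factor that acts with it, had 15.5 CPM in HOM, 14.7 CPM in HET and 13.6 CPM in WT (0.20, SE 0.0576, adjusted p = 0.547). Targets of the hypoxia factor HIF, among which Adm is usually counted, gave no call among 14 tested (median 0.028), with Pdk1 at -0.068 (SE 0.0352, adjusted p = 0.815) and Pgk1 at 0.056 (SE 0.0294, adjusted p = 0.815).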

How the data were processed

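The authors deposited 1 RSEM gene table per library with expected counts, TPM, FPKM and lengths, per the file headers. FPKM was not used. Tools listed in the submitters' processing notes are RSEM 1.2.12 and Bowtie2 2.2.0. What each did, the genome build, annotation and strandedness of counting: not given in the sources used here. Libraries were made with stranded kits from polyA RNA, per the labels' protocols. Positions are from GENCODE M21 (GRCm38), matched by Ensembl ID.

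The deposited expected counts were rounded, filtered with filterByExpr by genotype, scaled by TMM and fitted over all 22 libraries with edgeR 4.0.16 (quasi-likelihood, robust, Benjamini-Hochberg). CPM uses TMM-scaled totals. The deposited TPM values, scaled to length by the authors' RSEM run, gave levels between genes and an alternative test. The deposited lengths, in bases, were read for Calcrl. Ratios of summed counts have exact binomial 95% intervals, which, like the floor of 3 counts, cover counting error only. Replicate numbers follow the order of deposition. The fit was tested on simulated data. Members and gene lists were chosen with earlier results of these data known. Genes named were the members, fixed relatives, called or smallest-p genes of each list, the 3 genes most like each member, and neighbours. Alternatives were DESeq2 1.42.0, other scaling, no filter, limma 3.58.1 on TPM, the title prefix, and libraries left out.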

Additional observations from a re-analysis of the deposited data

Results flagged for a closer look

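Single libraries stood apart from their group in 11 of 54 gene and genotype sets, by the gap to the nearest library relative to the range; chance alone flags about 1 set in 20. HOM 3 was the highest HOM library for Ramp2 (20.6 CPM, the next 15.1), for Gpr182 (2.34 CPM, the next 1.60) and for Pam (226 CPM, the next 199.5). It is also the library with high Schwann cell, fibroblast, blood and endothelial markers. HOM 9 was the highest for Calca (21.2 CPM, the next 16.9), and HOM 8 the lowest for Ackr3 (4.49 CPM, the next 6.64). WT 6 was the lowest WT library for Calcr (0.348 CPM, the next 0.458), and HET 2 the highest HET library for Ret (152 CPM, the next 140.5). The remaining sets hold a single read: Adm2 in WT 1 (0.0305 CPM), and Gfral in HOM 8 (0.0257 CPM), HET 2 (0.0286 CPM) and WT 3 (0.0311 CPM), with 0 in the other libraries of each group.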

How the results depend on the processing

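No paired analysis was possible because the replicate numbers only follow the order of deposition. Of 869 alternative values for 40 results, 820 kept their direction and their side of the threshold or moved within the stated tolerance. Some of these values left out a library of the genotype outside the contrast, which can hardly move the result. Others are for Gdf15 and Adm2 in contrasts with HOM, for which they were chosen. The count is thus no measure of how firm the results are. DESeq2 called 28 genes in HOM against WT and 76 in HOM against HET, where limma-trend on log2(TPM + 1) called 11 and the title prefix as a covariate left 10. On leaving out single libraries, HOM against HET gave 10 to 39 calls, 39 of them without HOM 10. The members called in HOM against WT and in HOM against HET were 1 to 2, since without any one of HOM 1 to HOM 6 Adm2 failed the low-count filter and was not tested. With the same genes tested, an alternative chosen after seeing the data, both were called each time. Both genes were chosen for being high in HOM. Their calls and adjusted p-values in contrasts with HOM are thus a description and no support. With the title prefix as a covariate 1 member, Adm2, was called in HOM against HET, and Gdf15 missed the threshold (log2 fold change 2.78, adjusted p = 0.0532; from 0.000147 to 0.0532 over the alternatives other than libraries left out).

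Signs that turned belonged to differences that did not pass. On log2(TPM + 1) and log2(TPM + 0.1) these were Calcrl in HOM against WT (0.044 and 0.047), in HET against WT (0.054 and 0.057) and in HOM against HET (-0.010 and -0.0096), and Ramp1 (0.019 and 0.019) and Ramp2 (0.0056 and 0.0058) in HET against WT. With the title prefix it was Adm in HOM against HET (0.090). Gdf15 in HET against WT turned without WT 2 (0.077), WT 3 (0.0052) or HET 4 (0.093), and ran from -0.69 to 0.093. Calcrl in HOM against HET turned without HOM 3 (-0.00046), HET 5 (-0.022) or HET 6 (-0.0058), and ran to 0.090. The relation of Calcrl with Ramp2 was 0.0105 with log2(TPM + 1). As shares of expected counts, with no scaling to length, HOM, HET and WT had 76.9%, 79.2% and 79.2% for Ramp1, 20.7%, 18.1% and 18.3% for Ramp2, and 2.39%, 2.73% and 2.50% for Ramp3. The causes were not tested. Depth limits Gdf15 and Adm2 most, at 0 to 4 reads per HET or WT library.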
